A study of Homo sapiens with 6 samples.

Results

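7SK, 7SL and BC200 are short structured noncoding RNAs made by RNA polymerase III. In the deposited counts over repeat elements they appear as the repeat names 7SK, 7SLRNA and BC200, and every locus carrying one of these names was taken, 204 loci in all: 62 of 7SK, 131 of 7SLRNA and 11 of BC200, out of 433837 listed loci under 5230 repeat names. In each name the locus with the most reads over the 6 libraries was called the leading locus, and all others dispersed copies. The cells were HEK293T, an established line from human embryonic kidney with the large T antigen of SV40, which the labels give as wild type in the control group and as U7 snRNA knockdown in the other. The control group (3 libraries) received an ASO against GFP, and the U7 group (3 libraries) a chemically modified chimeric ASO against U7 small nuclear RNA at 100 nM, both with Lipofectamine 2000. The submitters describe the 3 libraries of each group as biological replicates, and total RNA was depleted of ribosomal RNA before the libraries were made. The question here is whether these RNAs differed between the 2 groups.

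7SK RNA is a nuclear scaffold. Together with HEXIM proteins, LARP7 and the capping enzyme MEPCE it holds the kinase P-TEFb inactive, which restrains the release of paused RNA polymerase II. 7SL RNA is the RNA of the signal recognition particle, which directs ribosomes making secretory and membrane proteins to the endoplasmic reticulum, and Alu elements descend from it. BC200 (gene BCYRN1) is a primate RNA that arose from a monomeric Alu element and is best known from neurons, where it is linked to local control of translation.

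The annotated human genes are described first because their likeness bears on how well reads of 1 copy can be told from reads of another. In GENCODE 29 (GRCh38) RN7SK lies at chr6:52995621-52995948 on the plus strand and is 328 bases long. Its first 100 bases (chr6:52995621-52995720) hold the 5′ hairpin that HEXIM binds, and capitals mark the letters GATC, a palindrome, repeated there.
RN7SK: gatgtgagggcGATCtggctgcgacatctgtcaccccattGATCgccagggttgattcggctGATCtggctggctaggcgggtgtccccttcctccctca
The motif GATC was found 3 times in RN7SK, and 66.7% of the 5112 GENCODE transcripts of 298 to 358 bases hold it at least once, 10.6% at least 3 times. 7SL RNA has 3 annotated genes, RN7SL1, RN7SL2 and RN7SL3. RN7SL1 and RN7SL2 were identical at 295 of 299 aligned bases, with an unbroken identical run of 205 bases. RN7SL1 and RN7SL3 were identical at 292 of 299, with a longest run of 123 bases. The annotation also holds 293 pseudogenes of RN7SK and 677 of RN7SL. Of all windows of 50 bases, 77.1% in RN7SK, 84.4% in RN7SL1, 86.5% in RN7SL2, 35.2% in RN7SL3 and 0.662% in BCYRN1 occur unchanged, on either strand, in a GENCODE transcript of a gene that does not overlap the RNA's own gene. With windows of 100 bases these shares were 52.0%, 74.5%, 82.1%, 12.0% and 0. The read length and the handling of multiply mapped reads are not stated in the labels or notes, so reads of 7SK and above all of 7SL could have been dropped or placed on another copy. The deposited tables carry no coordinates and do not pair a locus with a gene, so no leading locus is equated with one of these genes. The tables give no locus lengths either, and the 3 names are therefore not ranked by level.

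The libraries held between 1926892 and 2819540 reads in repeat loci, which is not the sequencing depth. LSU-rRNA_Hsa, a ribosomal RNA name, took 12.1% to 21.0% of them in controls; under the U7 ASO it took 17.7% to 21.8%. LTR12 and HERV9 names took 0.213% to 0.266% and 2.01% to 3.18%. The 16 loci named U7 held 6 to 12 reads in a control library and 4 to 10 in a U7 ASO library, too few to check the labels. Levels below are CPM (reads scaled to a common library size) after TMM scaling over repeat names, unless another scale is named. A feature was called changed at a Benjamini-Hochberg adjusted p under 0.05 in edgeR's quasi-likelihood test.

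None of the 3 RNAs was called changed after the U7 ASO, whether summed over all loci, at the leading locus or over the dispersed copies. The dispersed copies of BC200 did not pass the count filter and were not tested. 7SK was lower in all 3 U7 ASO libraries than in any control library, by a small amount that did not pass adjustment, and in the table of single loci the sign of its leading locus differed between scalings. The 7SLRNA groups overlapped, and BC200 was too sparsely covered for a narrow estimate. Among all 2236 tested repeat names, 2.55% were called in either direction (1.52% raised, 1.03% lowered).

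7SK had the most reads of all 5230 names, 2574207 over the 6 libraries. The libraries given the control ASO held 401680, 394783 and 427510 reads of 7SK (replicates 1, 2 and 3), and those given the U7 ASO held 344589, 456375 and 549270. As shares of the reads in repeat loci these were 19.8%, 20.5% and 21.6% in the controls and 16.5%, 19.4% and 19.5% with the U7 ASO. Together the Clopper-Pearson 95% intervals spanned 19.8% to 21.6% for control libraries, and 16.4% to 19.5% for U7 ASO libraries. Such intervals include counting error alone, and not the variation between libraries. They may be too narrow even for that, because the named processing tools include none for molecular identifiers and duplicate reads may come from 1 molecule. Even numbers made up 73.3% to 79.0% of the nonzero counts, so reads may not have been counted independently. The 2 groups did not overlap in this share, and U7 ASO replicate 1 was the lowest.

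On the CPM scale 7SK stood at 215061, 211868 and 206192 in the controls and at 162006, 187603 and 195420 with the U7 ASO. The controls lay close together and the U7 ASO libraries were spread, all below the controls. The means were 211040 ± 4492 and 181676 ± 17478 CPM (SD, n = 3 each), a log2 fold change of −0.22 (SE 0.09, 95% interval −0.41 to −0.03, adjusted p = 0.263, unadjusted p = 0.0276, edgeR quasi-likelihood test). Of the 2236 tested names, 14.6% had an unadjusted p under 0.05 and 20.1% had groups that did not overlap, 10.2% with the U7 ASO lower and 9.93% with it higher, so 7SK was 1 of many in both respects. Over the alternatives the adjusted p ran from 0.0860 (limma-voom) to 0.699. Without U7 ASO replicate 1 the log2 fold change was −0.13, and with library totals that leave out ribosomal RNA, LTR12 and HERV9 names it was −0.09. That scaling moved the median log2 fold change of all tested names from −0.01 to 0.12, and relative to that median 7SK stood at −0.21 under both scalings. A change of scaling moves all names nearly alike, so this distance was bound to stay and tests nothing. In the table of single loci with TMM scaling, the leading 7SK locus stood at −0.06 relative to that table's median. The parts of the ribosomal RNA and LTR12 shares in the 7SK difference were not tested. In bulk RNA, fewer cells with the RNA and less RNA per cell cannot be told apart.

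**Figure D1:**
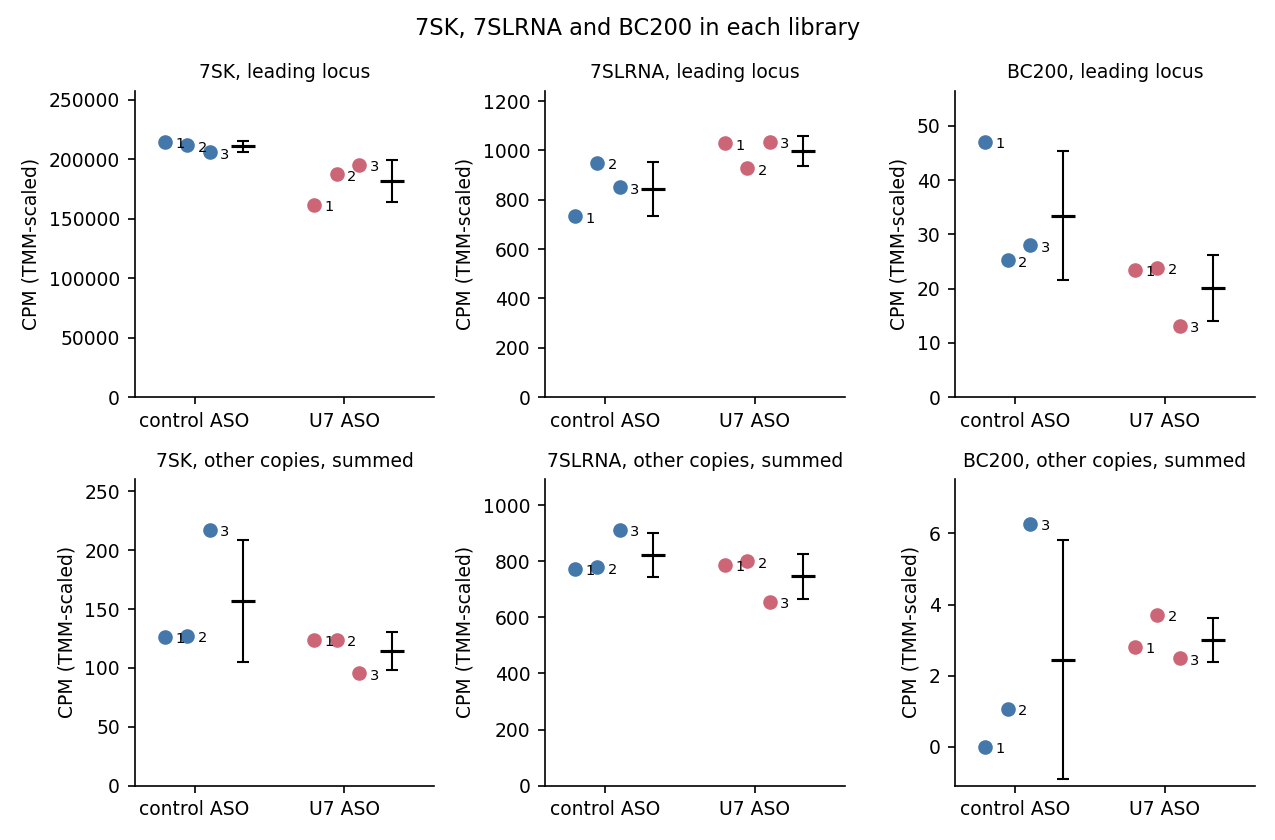
TMM-scaled CPM (linear axis) of the leading locus and of the summed dispersed copies of 7SK, 7SLRNA and BC200, 1 point per library with its replicate number; bars beside the points are the mean ± SD of 3 libraries. The 7SK leading locus lies between 161883 and 195324 CPM with the U7 ASO, below all controls, while the 7SLRNA points of the 2 groups overlap.

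Nearly all 7SK reads lay in 1 locus. 7SK_dup17_1950532 held 99.9% of the reads of the name in every library, and with 2572452 reads, 19.5% of all reads, it held more reads than any other of the 433837 listed loci. Among the 1317 names with at least 11 listed loci, the leading locus took a median of 20.4% of the reads. In 13 of these names it took over 90%, in 2 over 99%, and 7SK ranked first. The leading locus held 214934, 211741 and 205975 CPM in the controls and 161883, 187480 and 195324 with the U7 ASO, the same order of libraries as the name. Its log2 fold change was −0.22 (SE 0.08, 95% interval −0.38 to −0.05, adjusted p = 0.185, edgeR). Over the alternatives its adjusted p ran from 0.0520 (limma-voom) to 0.996 (edgeR, table of single loci). Of the 3286 leading loci and dispersed sums tested, 3.59% were called (2.5% raised, 1.1% lowered). On the scale of single loci, where TMM factors came from the 14380 loci tested, the same counts gave 262031, 266843 and 267745 CPM in the controls and 217787, 282379 and 300483 with the U7 ASO. There the groups overlapped and the log2 fold change was 0.0073 (95% interval −0.36 to 0.38, adjusted p = 0.996, edgeR). In the same table it was 0.04 with DESeq2 size factors, −0.15 with upper-quartile scaling and −0.05 with totals over the tested loci only. With totals that leave out ribosomal RNA, LTR12 and HERV9 names it was −0.09. Under that scaling the table of leading loci and dispersed sums gave −0.09 as well. With totals over the tested repeat names that table gave −0.16.

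The 61 dispersed copies of 7SK held few reads. They summed to 236, 237 and 450 reads in the controls and 263, 301 and 268 with the U7 ASO, or 126, 127 and 217 CPM against 124, 124 and 95.3 CPM. Control replicate 3 stood well above the other libraries, and the control range lay just above that of the U7 ASO. Groups also did not overlap at 20.5% of the 3286 leading loci and dispersed sums tested, 11.3% with the U7 ASO lower and 9.16% higher. The log2 fold change was −0.46 (SE 0.27, 95% interval −1.05 to 0.13, adjusted p = 0.489, edgeR), and −0.15 without control replicate 3. Of the 61 copies, 7 had a read in all 6 libraries, 40 in 1 library only, and 39 held fewer than 10 reads in all. The 10 copies with most reads held 81.6% of the reads of the dispersed set.

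7SK_dup31_3905790, the most read of them, held 74, 42 and 148 reads in the controls and 30, 38 and 62 with the U7 ASO. These groups overlapped, with control replicate 3 the highest, and at the locus level the log2 fold change was −1.15 (SE 0.48, adjusted p = 0.311, unadjusted p = 0.0312, edgeR). 7SK_dup9_5301765 held 22, 30 and 110 reads in the controls and 70, 28 and 38 with the U7 ASO, again with control replicate 3 the highest. 7SK_dup15_585169 (28, 28 and 38 against 61, 46 and 10 reads) and 7SK_dup17_4245768 (32, 32 and 20 against 28, 64 and 28 reads) overlapped between the groups. 7SK_dup25_1712237 and 7SK_dup10_4594344 held 10 to 34 and 2 to 30 reads per library, and the other 4 of the leading 10 copies at most 18.

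**Figure D2:**
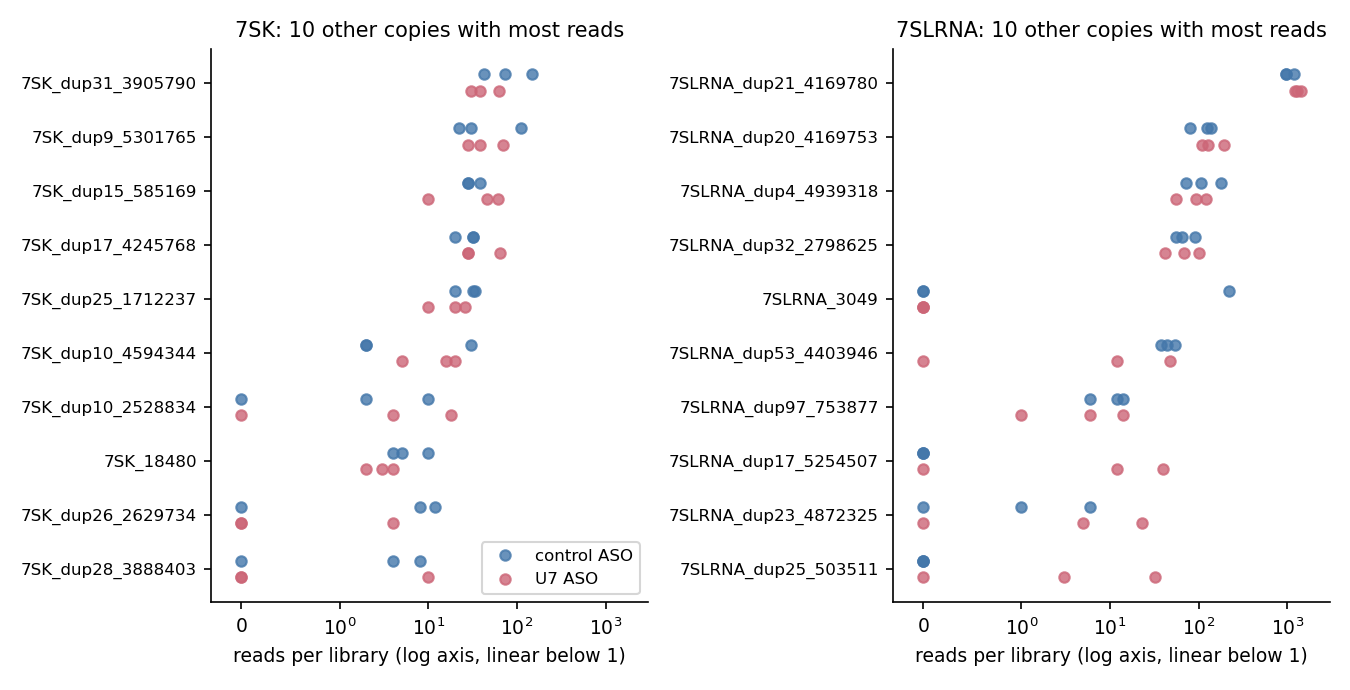
Reads per library (horizontal axis, logarithmic above 1 and linear below) of the 10 dispersed copies of 7SK and of 7SLRNA with most reads; each point is 1 of 3 control or 3 U7 ASO libraries. The groups overlap at most copies, and 7SLRNA_3049 has 217 reads in 1 control library and 0 elsewhere.

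7SLRNA was the name with the 66th most reads and did not differ detectably between the groups. The controls held 2812, 3220 and 3652 reads and the U7 ASO libraries 3859, 4201 and 4751, shares of 0.139%, 0.167% and 0.184% against 0.185%, 0.179% and 0.169% (95% intervals from 0.134% to 0.190% and from 0.164% to 0.191%). In CPM these were 1506, 1728 and 1761 in the controls and 1814, 1727 and 1690 with the U7 ASO. Control replicate 1 was the lowest library, and the groups overlapped. The means of 1665 ± 139 and 1744 ± 63.7 CPM (SD, n = 3 each) gave a log2 fold change of 0.07 (SE 0.16, 95% interval −0.26 to 0.39, adjusted p = 0.895, edgeR), so a fold above 1.31 or below 0.836 lay outside the interval.

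Unlike 7SK, the 7SLRNA reads were divided over several loci. The leading locus, 7SLRNA_dup18_4169097, took 48.3% to 55.0% of the reads of the name in controls, but 53.7% to 61.3% under the U7 ASO (95% intervals from 46.7% to 56.7% and from 52.2% to 62.7%). 7SLRNA_dup21_4169780 and 7SLRNA_dup20_4169753 came next, and the 3 loci together held 83.8% to 89.3% of its control reads, and 90.5% to 92.3% under the U7 ASO. The 83.8% was control replicate 3, where the copy 7SLRNA_3049 alone held 217 of the 3652 reads of the name. These shares were not tested, and how often such shares separate the groups in other names was not computed. By CPM, which is another measure, the groups did not overlap in 20.1% of all tested names. The likeness of the 7SL genes given above bears on all 3 loci, and the split of reads among them is uncertain.

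The leading 7SLRNA locus held 1368, 1770 and 1764 reads in the controls and 2188, 2256 and 2912 with the U7 ASO, or 732, 950 and 851 CPM against 1029, 927 and 1036 CPM. U7 ASO replicate 2 lay below control replicate 2 on this scale. The log2 fold change was 0.24 (SE 0.18, 95% interval −0.14 to 0.62, adjusted p = 0.614, edgeR). On the scale of single loci the groups did not overlap, as at 20.6% of all tested loci (12.2% with the U7 ASO higher, 8.36% lower), and the log2 fold change was 0.45 (SE 0.23, adjusted p = 0.499, edgeR).

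The second locus, 7SLRNA_dup21_4169780, held 956, 966 and 1173 reads in the controls and 1215, 1436 and 1283 with the U7 ASO (log2 fold change 0.23 on the locus scale, adjusted p = 0.874, edgeR). The ratio of the leading to this locus was 1.43, 1.83 and 1.5 in the controls and 1.80, 1.57 and 2.27 with the U7 ASO, with overlap. 7SLRNA_dup20_4169753 held 80, 139 and 124 reads against 127, 108 and 192.

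All 130 dispersed 7SLRNA copies together held 1444, 1450 and 1888 reads in the controls and 1671, 1945 and 1839 with the U7 ASO, or 773, 778 and 911 CPM against 786, 800 and 654 CPM. The groups overlapped, and the log2 fold change was −0.14 (SE 0.18, 95% interval −0.53 to 0.25, adjusted p = 0.810, edgeR). Leaving out control replicate 3 gave −0.05, and leaving out U7 ASO replicate 3 gave −0.04. The set was dominated by its 5 leading copies, with 88.5% of its reads, and 83 copies had a read in 1 library only. 7SLRNA_dup21_4169780 alone held 68.7% of the reads of the set, so its sum mostly follows that locus. 7SLRNA_dup4_4939318 (177, 105 and 72 against 121, 92 and 55 reads), 7SLRNA_dup32_2798625 (64, 56 and 91 against 42, 101 and 68 reads) and 7SLRNA_dup53_4403946 (54, 44 and 38 against 12, 0 and 48 reads) overlapped between the groups.

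1 copy was seen in 1 library. 7SLRNA_3049 held 217 reads in control replicate 3 and 0 in the other 5 libraries. The 14 other listed loci within 20 running numbers of it held 81, 99 and 83 reads in the controls and 131, 108 and 50 with the U7 ASO, so the loci numbered near it were not high in that library. Over all listed loci, 4 held at least 100 reads in 1 library and 0 in the rest, of which control replicate 3 had 2. Without this locus the dispersed sums of the controls were 1444, 1450 and 1671 reads, and the log2 fold change of the dispersed copies was −0.07 (adjusted p = 0.900, edgeR). Also outside the leading loci, 7SLRNA_dup17_5254507 held 0 reads in the controls and 40, 0 and 12 with the U7 ASO.

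BC200 was read little. The controls held 88, 49 and 71 reads and the U7 ASO libraries 56, 67 and 44, or 47.1, 26.3 and 34.2 CPM against 26.3, 27.5 and 15.7 CPM. Control replicate 1 was the highest and U7 ASO replicate 3 the lowest, and the groups overlapped. The means of 35.9 ± 10.5 and 23.2 ± 6.54 CPM (SD, n = 3 each) gave a log2 fold change of −0.63 (SE 0.40, 95% interval −1.47 to 0.20, adjusted p = 0.505, edgeR). The interval runs from a fold of 0.361 to 1.15. Without control replicate 1 the log2 fold change was −0.38, and −0.40 without U7 ASO replicate 3.

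The leading BC200 locus, BC200_dup4_531798, held 88, 47 and 58 reads in the controls and 50, 58 and 37 with the U7 ASO, 90.1% of all reads of the name. In CPM it stood at 47.1, 25.2 and 28.0 against 23.5, 23.8 and 13.2, and the groups did not overlap on this scale. This was so at 20.5% of the 3286 leading loci and dispersed sums tested, 11.3% with the U7 ASO lower and 9.16% with it higher. On the scale of single loci the same counts gave 57.4, 31.8 and 36.4 CPM against 31.6, 35.9 and 20.3 CPM, the groups overlapped, and the log2 fold change was −0.52 (adjusted p = 0.806, edgeR). On the scale of repeat names the log2 fold change was −0.73 (SE 0.42, 95% interval −1.63 to 0.17, adjusted p = 0.462, edgeR), and −0.39 without control replicate 1 or −0.49 without U7 ASO replicate 3. The 10 dispersed copies held 0, 2 and 13 reads in the controls and 6, 9 and 7 with the U7 ASO, no copy held more than 10 reads in all, and their sum did not pass the count filter.

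**Figure D3:**
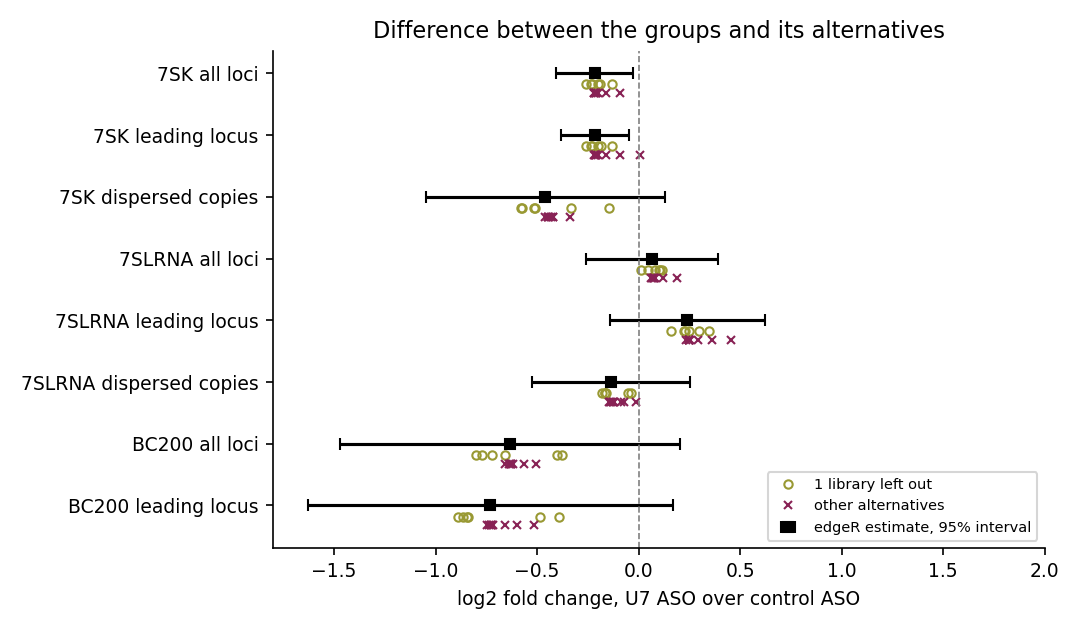
Log2 fold change of the U7 ASO over the control ASO for each name, its leading locus and its dispersed copies: squares with bars are the edgeR estimate with its 95% interval, circles the 6 fits that each leave out 1 library, crosses the other alternatives. 7SK lies below 0 except for its leading locus in the table of single loci with TMM scaling (0.0073), and the intervals of 7SLRNA and BC200 span 0.

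At the level of single loci, 15 of the 204 member loci passed the count filter: 7 of 7SK, 7 of 7SLRNA and 1 of BC200. Of these 0 were raised and 0 lowered in edgeR's quasi-likelihood test, against 4.96% of all 14380 tested loci called in either direction (4.49% raised, 0.473% lowered). The unadjusted p was under 0.05 for 1 of the 15 in edgeR, 2 in DESeq2 and 3 in limma-voom, and the last 2 called 0 as well. Over all 14380 tested loci 12.3% had such a p in edgeR (1768 loci), with 1854 loci in DESeq2 and 1942 in limma-voom. The log2 fold changes ran from −1.37 to 0.45 with a median of −0.11, beside a median of 0.06 over all tested loci. The other 189 loci were not tested, and the filter admits a locus more readily if it is high in either group.

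Ratios within a library do not depend on scaling. The log2 ratio of 7SK to 7SLRNA reads was 7.16, 6.94 and 6.87 in the controls and 6.48, 6.76 and 6.85 with the U7 ASO. Every U7 ASO library lay below every control, although U7 ASO replicate 3 was close to control replicate 3. The means were 6.99 ± 0.15 and 6.70 ± 0.19, a difference of −0.29 (exact two-sided permutation p = 0.1, the smallest that 3 against 3 libraries allow, adjusted p = 0.3 over 3 ratios). The ratio of 7SK to BC200 was 12.56 ± 0.41 and 12.98 ± 0.55 (exact permutation p = 0.4), and that of 7SLRNA to BC200 was 5.57 ± 0.53 and 6.28 ± 0.42 (exact permutation p = 0.2), with overlap in both. No ratio could pass 0.05 in this design.

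**Figure D4:**
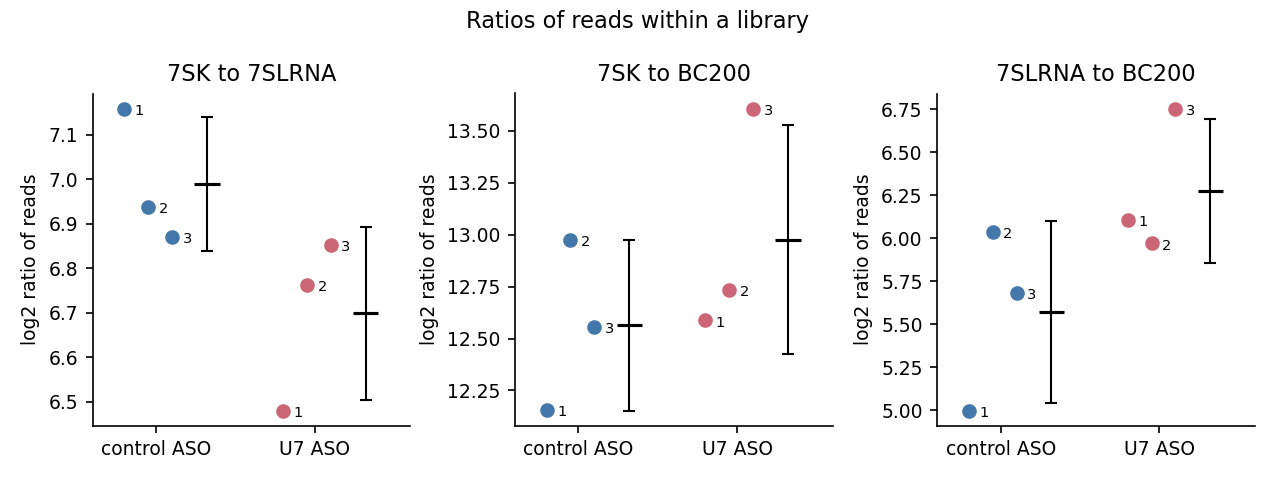
Log2 ratio of reads (axes do not start at 0) between each pair of names within a library, 1 point per library with its replicate number and the mean ± SD of 3 libraries beside them. The ratio of 7SK to 7SLRNA lies between 6.48 and 6.85 with the U7 ASO and between 6.87 and 7.16 in the controls.

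Other repeat names descend from these RNAs or share their polymerase. The counts called in each list below stand beside 1.52% raised and 1.03% lowered over all 2236 tested names. Of 46 tested Alu names and Alu monomers, the descendants of 7SL, 0 were raised and 0 lowered in edgeR at the adjusted threshold, with a median log2 fold change of 0.30 beside −0.01 over all 2236 tested names. The 4 monomers, which are closest to 7SL and BC200, had log2 fold changes from −0.04 (FRAM) to 0.18 (FAM), and FLAM_C stood at 1556 ± 42.6 and 1550 ± 101 CPM (SD, n = 3 each). Of the 4 Y RNA names, small RNAs bound by the Ro60 protein, 0 were called, and HY3 at 1241 ± 120 and 749 ± 219 CPM came nearest (log2 fold change −0.73, adjusted p = 0.0582, edgeR). Of 31 transfer RNA names 1 was raised and 0 lowered, tRNA-Glu-GAG_ (log2 fold change 1.76, adjusted p = 0.0236, edgeR), whose call was lost in 3 of 14 alternatives: those without replicate 1 of the controls, or without replicate 1 or replicate 3 of the U7 ASO group. The transfer RNA names had a median log2 fold change of 0.70, with 26 values above 0 and 5 below, beside the −0.01 over all names. U6, a spliceosomal RNA also made by RNA polymerase III, stood at 30.6 ± 10.4 and 32.3 ± 11.5 CPM.

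Among 10 tested names of other small nuclear and nucleolar RNAs, 0 were raised and 2 lowered, beside 1.52% and 1.03% of all tested names. The spliceosomal RNAs U2 (log2 fold change −1.36, adjusted p = 0.0362) and U4 (−0.79, adjusted p = 0.0454, edgeR) were the lowered names, and their calls were lost in 7 and 8 of 14 alternatives. Those included library totals as the only scaling, and leaving out replicate 1 or 2 of the controls, or replicate 2 or 3 of the U7 ASO group. U4 also lost its call without control replicate 3. The log2 fold changes themselves stayed between −1.44 and −1.24 for U2 and between −0.84 and −0.67 for U4 over all 14 alternatives. Proteins of the 7SK and signal recognition particles could not be followed, because the tables hold repeat loci and no gene rows.

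**Figure D5:**
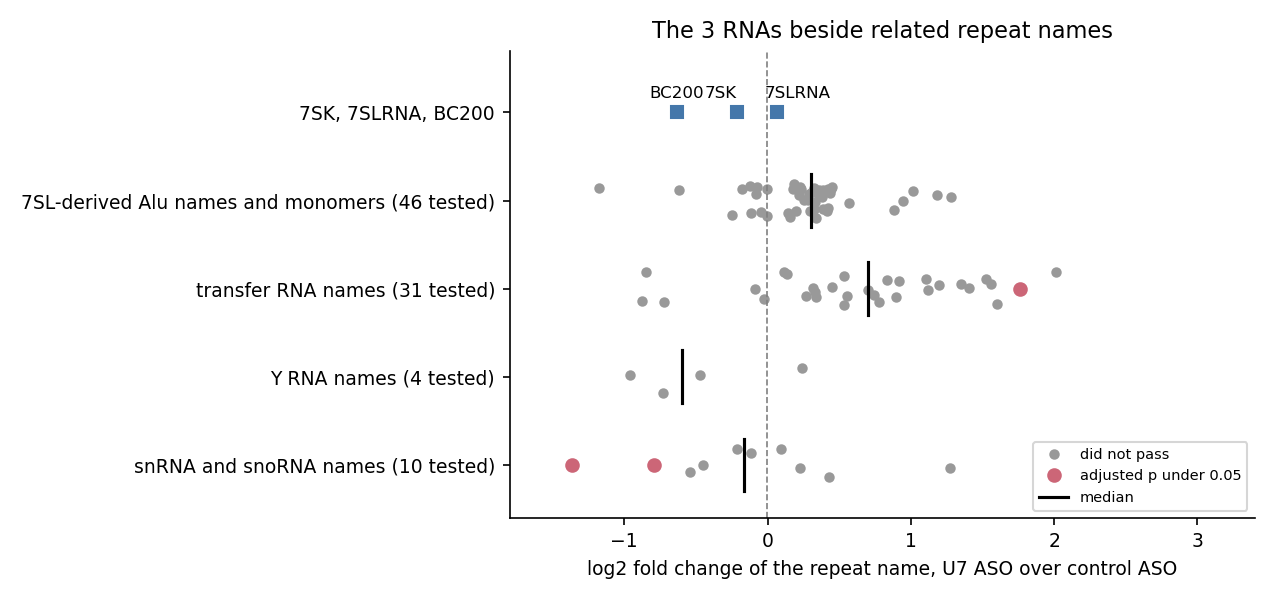
Log2 fold change of the U7 ASO over the control ASO for the 3 names (squares) and for the tested names of 4 related lists (circles, red where the adjusted p is under 0.05), with each list's median as a bar and the median of all tested names as a dashed line. 7SK, 7SLRNA and BC200 lie at −0.22, 0.07 and −0.63.

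Among the 1144 other names whose mean log2 CPM reached 5, those whose log2 CPM followed a member most closely over the 6 libraries were named for each. For 7SK all 3 were simple repeats, lower in every U7 ASO library than in any control. So were 10.2% of the tested names. As the 3 were picked for following 7SK, which itself separated the groups, this adds no evidence. None of them was called (adjusted p from 0.0673 to 0.283, edgeR). The closest was (TTCCTC)n with a Pearson r of 0.979. The next name, (AGCTCC)n, had an r of 0.959. The last was (TCTTAGG)n with an r of 0.947. For 7SLRNA they were (CTCCTC)n, LTR29 and ERV3-16A3_I-int (r of 0.941, 0.938 and 0.933), and for BC200 (CCCG)n, L2-1_AMi and (CTTGAT)n (r of 0.983, 0.962 and 0.957). The 3 names for BC200 were also lower in every U7 ASO library than in any control, although the groups of BC200 itself overlapped. The points share the libraries and their scaling, and with 6 points and 1144 candidates such values are a description only. Among the members themselves r was −0.63 for 7SK and 7SLRNA, 0.36 for 7SK and BC200 and −0.50 for 7SLRNA and BC200.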

How the data were processed

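RNA of 3 control ASO and 3 U7 ASO libraries was counted over repeat loci, and sample titles gave the groups and replicate numbers. Each library has 1 table of raw read counts per locus, deposited by the authors. STAR 2.5.3a, FastQC 0.11.5 and the Subread counter featureCounts 1.5.0-p1 are named with GRCh38, per the submitters' processing notes; the repeat annotation, the strand setting and what was done with multiply mapped reads are not stated there. Even numbers made up 73.3% to 79.0% of the nonzero counts. As the strand setting is unknown, a repeat and a transcript on its opposite strand cannot be separated.

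Counts were tested for single loci (14380 tested), for sums over repeat names (2236) and for a table with a leading and a dispersed row per name (3286, scaled with the factors of the names). The test was edgeR 4.0.16 under R 4.3.3 (quasi-likelihood, TMM, filterByExpr with minimum count 10 and minimum total 15), adjusted by Benjamini-Hochberg over each whole table. Limma-voom (limma 3.58.1) and DESeq2 1.42.0 were alternatives, with other scalings, no filter, a replicate block and each library left out. Each SE was the fold change divided by the root of its F value. The code was tested on simulated counts. The members, lists and rules were chosen with earlier results of these data known. Named were the members, their 10 dispersed copies with most reads, called loci, and the 3 most correlated names per member. The sequence and coordinates are from GENCODE 29; the sequences of the other RNAs are not reported here.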

Additional observations from a re-analysis of the deposited data

How the results depend on the processing

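The 8 tested results on 7SK, 7SLRNA and BC200 were recomputed in 116 alternatives. In 115 the direction and the side of the threshold stayed, and the exception was the 7SK leading locus in the table of single loci with TMM scaling (log2 fold change 0.0073, adjusted p = 0.996, edgeR). The 116 hold only 1 fit of that table per leading locus, so they do not show how stable the sign is there. Other fits of that table gave this locus −0.15 (upper quartile), −0.05 (totals over the tested loci only) and 0.04 (DESeq2 size factors). Totals without ribosomal RNA, LTR12 and HERV9 gave −0.09. With 1 library left out it ran from −0.05 to 0.13 there, highest without U7 ASO replicate 1. For the sums over all loci, leaving out 1 library gave log2 fold changes from −0.26 to −0.13 for 7SK, from 0.01 to 0.11 for 7SLRNA and from −0.80 to −0.38 for BC200. The differences of the 3 within-library log2 ratios kept their sign in all 8 alternatives each. Member loci called lowered numbered 0, and 2 with no count filter: 7SLRNA_3049, with reads in 1 library only, and 7SK_dup17_1950532 at a log2 fold change of −0.02 (adjusted p = 0.00992, edgeR). That fit took in all 433837 listed loci, with a median log2 fold change of 1.52. The reads of 7SK_dup17_1950532 overlapped between the groups, so its call is not read as a lowering. BC200 dispersed copies could be tested only without the filter (log2 fold change 0.30, adjusted p = 0.961, edgeR). Without 7SLRNA_3049, an alternative chosen after seeing the data, the log2 fold change of the dispersed 7SLRNA copies went from −0.14 to −0.07. Whether replicate numbers pair the libraries was not settled. Deviations of same-numbered libraries from their group means correlated at 0.12, −0.03 and 0.12 over 2236 names. Those of differently numbered libraries ran from −0.16 to 0.06, and so few libraries cannot decide it. A replicate block gave 7SK a log2 fold change of −0.22 (adjusted p = 0.164, edgeR), and raised the names called from 57 to 133. Over the alternatives 33 to 133 names and 313 to 942 loci (713 in the reported fit) were called, and 34 raised and 23 lowered names became 41 and 14 with totals that leave out ribosomal RNA, LTR12 and HERV9. Few reads limit BC200 and the dispersed copies.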
